A study of Mus musculus with 14 samples.

Results

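AGO2 binding in the 3′ UTRs of wild type macrophage mRNAs was set beside the level of the same mRNAs. The genes were those with a mean of 5 RPKM or more (mRNA reads scaled to the length of the gene model and the depth of the library) over the 4 wild type mRNA libraries. They numbered 6822 of the 19328 genes whose identifier carried a symbol that no other identifier shared, out of 21444 genes in the files. In these genes 3458 (50.7%, 95% exact Clopper-Pearson interval 49.5 to 51.9%) held at least 1 converted 3′ UTR group, and 3364 held none. A group is a cluster of overlapping AGO2 reads as the authors listed it, and a group counts as converted when at least 1 of its reads carries the T-to-C change that marks a crosslinked uridine. The ratio of a gene's converted 3′ UTR reads to its mean RPKM is called its occupancy below. The labels and the series text set no comparison of their own between AGO2 reads and mRNA level, so what follows describes 1 genotype and holds no test between conditions. In these bulk samples, fewer cells with an mRNA and less of it per cell cannot be told apart, and the same holds for AGO2 reads.

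The cells were bone marrow derived macrophages of C57BL/6 mice, grown from femur and tibia marrow in 20% L929 cell medium, which supplies the growth factor CSF1. The labels give 6 days of culture and the series text gives 7-day cultures, and the difference could not be settled. Wild type here means the genotype ELAVL1f/f, a floxed Elavl1 gene with no Cre named. AGO2 PAR-CLIP used an antibody to mouse AGO2 and gave 1 library, so no gene's AGO2 reads have a replicate. The 4 mRNA libraries (WT 1 to WT 4) held 11192104 to 24681273 counted reads. The labels do not say which animals the numbers stand for.

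Argonaute 2 carries a mature miRNA, whose bases 2 to 8, the seed, pair with target mRNAs, most often in the 3′ UTR. Bound mRNAs are repressed through TNRC6 proteins, which recruit deadenylases and decapping enzymes. In PAR-CLIP the cells take up 4-thiouridine, ultraviolet light links it to the bound protein, and the linked base is read as C. The number of AGO2 reads on an mRNA therefore depends on how much of that mRNA there is as well as on how often it is bound.

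The genes of highest occupancy are shown by the strongest group of each, because most of these groups hold a seed match to an abundant macrophage miRNA. Of the 5 genes of highest occupancy in each of 3 RPKM ranges (5 to under 20, 20 to under 100, 100 or more), 15 in all, 14 had a strongest group that was not itself a miRNA. In these 14, 11 groups held a 7-base match to one of the 15 most abundant seed families, 5 of them to miR-27, and that of Cdkn1b held a match to miR-221, a family added after values were seen. Over all converted 3′ UTR groups 17.5% held a match to the 15. Of groups with 1000 reads or more, to which all 14 belong, 53.8% did. Their median length was 37 bases against 25 over all groups, and a longer group has more room for a match. Each window below has 30 bases at most, read 5′ to 3′ from the deposited group sequence. Capitals mark the complement of miRNA bases 2 to 8, with the A that follows it where there is one. Windows are printed for 9 of these 12. The first set holds miR-27 matches.
Tnpo1: tgtattttcttacatACTGTGAAtgtgaag
Ell2: atttaaccataacatACTGTGActcatcaa
Scd2: atttcgcctaacaatACTGTGActcagtat
Tmbim6: aggctgcgttctctaactcatACTGTGAAg
The second set holds matches to other families, in the order miR-142, miR-221, miR-29, miR-24 and miR-30.
Rbm47: tcaaccatttcacgtACACTACtgaggtaa
Cdkn1b: ctgcctctaaaagcattggATGTAGCAttg
Fos: ttattggaattaaccTGGTGCTggattgta
Lpl: tgattgtctgtctcaCTGAGCCAacttaac
Vat1: ttcagccccaaacttTGTTTACActgctag
The miRNAs they match, from the RefSeq miRNA table, have these mature sequences with bases 2 to 8 in capitals, and miR-21a is added for its abundance.
mmu-miR-27b-3p: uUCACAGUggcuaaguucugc
mmu-miR-142-3p: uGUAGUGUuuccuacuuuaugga
mmu-miR-221-3p: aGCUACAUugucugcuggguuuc
mmu-miR-29a-3p: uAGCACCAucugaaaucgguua
mmu-miR-24-3p: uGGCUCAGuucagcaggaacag
mmu-miR-30e-5p: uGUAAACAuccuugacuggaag
mmu-miR-21a-5p: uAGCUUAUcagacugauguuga
The strongest groups of Spred1 and Ctnnb1 held no match to these families, and that of Kif5b held a miR-142 match that is not printed here. On the mm9 build, with positions as the deposited table gives them, the group of Tnpo1 lies at chr13:99612926-99612994 on the minus strand, that of Ell2 at chr13:75909520-75909559 on the plus strand, and that of Fos at chr12:86817712-86817857 on the plus strand. The group of Cdkn1b lies at chr6:134874385-134874459 on the plus strand and that of Rbm47 at chr5:66407958-66408070 on the minus strand. All are annotated as 3′ UTR in that table.

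AGO2 reads hardly followed mRNA level among genes with a group. Over the 3458 genes, reads and mean RPKM had a Spearman correlation of 0.05 (Pearson 0.08 on log10 values), a description across genes that share the same libraries. The middle 50% of these genes held 24 to 216 reads, with a median of 69 in 2 groups. Occupancy had a median of 3.97 reads per RPKM, with 10% of genes under 0.463 and 10% over 39.5, an 85.4-fold range. RPKM is scaled to gene length whereas the AGO2 reads are not, and against CPM values scaled by TMM, which keep gene length, the Spearman correlation was 0.23. The groups of lowest read number hold 5 reads, the smallest in the file, so a gene of few bound copies and a gene with no group cannot be told apart below that number.

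**Figure D1:**
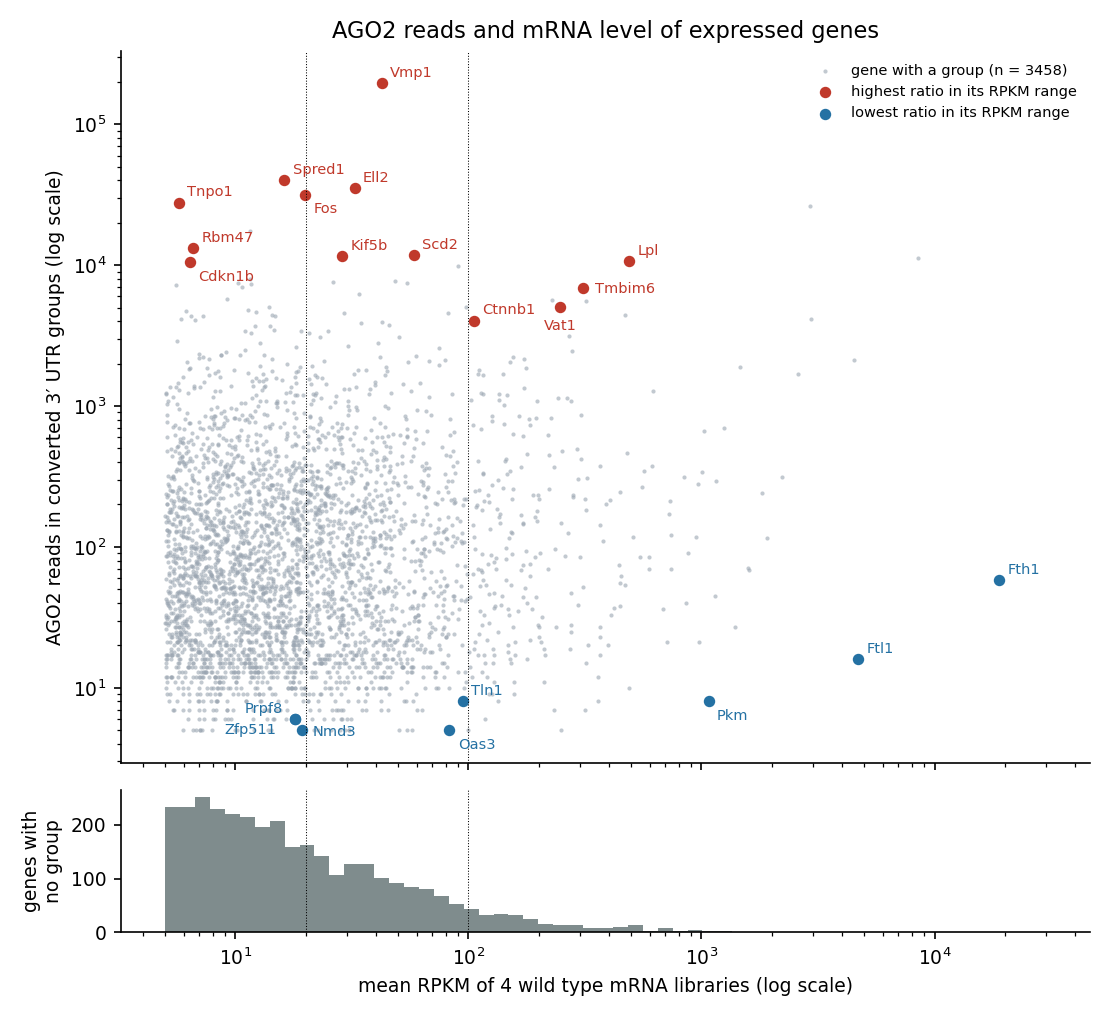
Each grey point is 1 of the 3458 genes with a converted 3′ UTR group, with its mean RPKM over 4 wild type libraries on the horizontal log axis and its AGO2 reads in 1 PAR-CLIP library on the vertical log axis, red and blue points are genes named for highest and lowest occupancy in each RPKM range (dotted lines at 20 and 100 RPKM), and the lower panel counts the 3364 genes with no group. The cloud is flat, with a Spearman correlation of 0.05, with Tnpo1 at its upper left and Fth1 at its far right.

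The share of genes with a group was near 50% in every range of mRNA level over all genes, and among protein coding genes it was higher in the upper ranges. It was 50.4% (2041 of 4053 genes) from 5 to under 20 RPKM, 51.4% (1157 of 2250) from 20 to under 100, and 50.1% (260 of 519) at 100 or more. The reads of these genes rose little across the ranges, with medians of 63, 75 and 97.5, while their median RPKM over all genes of a range rose from 9.54 to 35.9 and 178. Median occupancy was accordingly 6.70, 1.93 and 0.469 reads per RPKM, a fall that is partly built in because RPKM is its denominator. Genes were therefore ranked within each range. Among the 5954 genes that RefSeq lists as protein coding the share with a group was 57.5% (56.3%, 58.6% and 62.0% in the 3 ranges), since 557 of the genes without one were pseudogenes and 213 had no listed type.

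Gene length went with the presence of a group. Gene-model length was recovered from each gene's count and RPKM, and it covers the whole model and not the 3′ UTR alone. In the shortest quintile of protein coding genes (0.293 to 1.66 kb) 33.8% held a group (402 of 1191, interval 31.1 to 36.5%). In the longest quintile (6.89 to 173 kb) 76.3% did (909 of 1191, interval 73.8 to 78.7%), and the quintiles between stood at 49.3%, 58.0% and 69.9%. Within each of the 5 length quintiles the share was higher in each higher RPKM range. In the second shortest it was 40.2% (interval 36.4 to 44.1%), 57.4% (52.6 to 62.2%) and 68.9% (59.8 to 77.1%) in the 3 RPKM ranges. The first interval lay below the other 2, which overlapped, and in the longest quintile the values were 75.2%, 80.1% and 86.7% with intervals that all overlapped. Among genes with a group, level and length had a Spearman correlation of -0.37. Occupancy itself correlated with length at 0.39 and reads did at 0.21. RPKM is divided by gene-model length and the AGO2 reads are not, so the value for occupancy is partly built in. The length of the 3′ UTRs was not used here, so its part in these values was not tested.

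**Figure D2:**
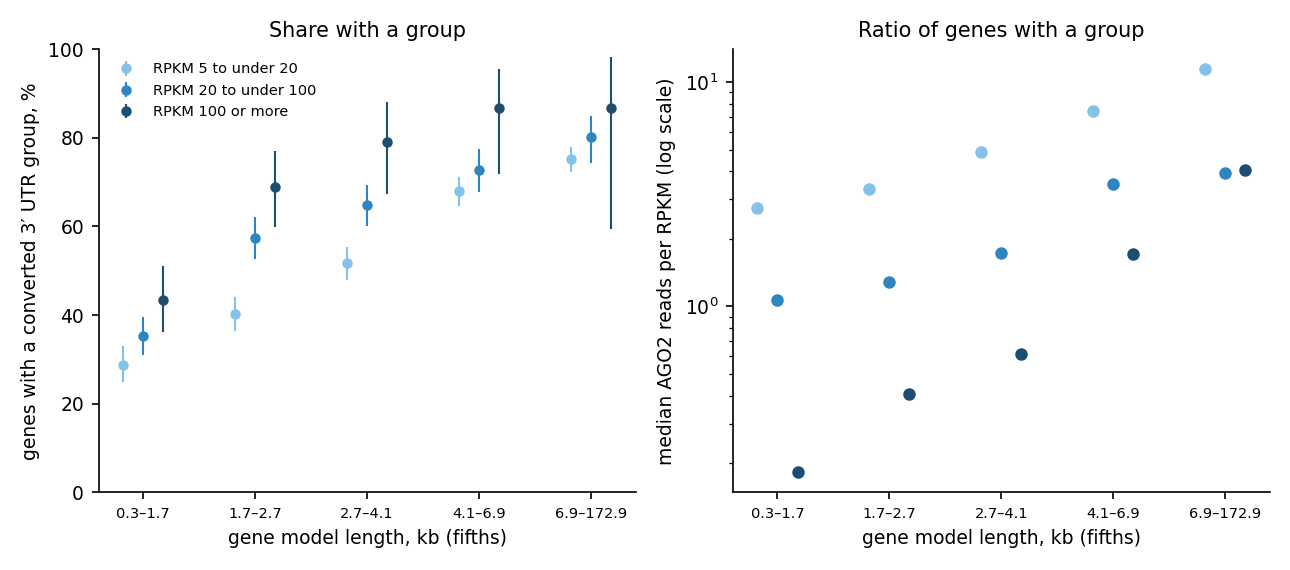
Left, percent of protein coding genes with a converted 3′ UTR group (points, with 95% exact intervals) by quintile of gene-model length in kb and by RPKM range (shades); right, median AGO2 reads per RPKM of the genes with a group, on a log axis. Shares rise from 28.8% in short genes of 5 to under 20 RPKM to 86.8% and 86.7% in the 2 longest quintiles at 100 RPKM or more (38 and 15 genes), and the ratio rises with length within every range. The rise of the ratio is partly built in, because RPKM is divided by gene-model length.

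AGO2 reads were concentrated in few genes. Leaving out groups that are miRNAs themselves, the 10 genes of most reads held 19.5% of all reads of expressed genes, and the 346 genes of most reads held 70.4%. In 1135 genes (32.8%) the reads came from 1 group, and 266 genes had 10 or more, with 41 in Tnpo1. Where a gene had several groups, the strongest held a median of 55.2% of the reads. By reads alone, without regard to level, the leading genes were Spred1 (39907), Ell2 (35304), Fos (31686), Tnpo1 (27754) and Psap (26353). Psap, which encodes the precursor of the saposins that help degrade sphingolipids in lysosomes, reached this number at 2929 ± 1036 RPKM (SD, n = 4), so its occupancy was 9.0, while Fos reached a like number at 19.9 RPKM. Lyz2, the macrophage lysozyme gene, had 11171 reads at 8488 ± 1869 RPKM and an occupancy of 1.32, and its reads may be shared with the near-identical Lyz1.

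From 5 to under 20 RPKM the 5 genes of highest occupancy encode a nuclear import receptor (Tnpo1, transportin 1), a brake on Ras signalling (Spred1), an RNA-binding protein (Rbm47), a cell cycle inhibitor (Cdkn1b, p27) and a subunit of the AP-1 transcription factor (Fos). Tnpo1 stood at 5.46, 3.11, 7.94 and 6.39 RPKM in WT 1 to WT 4 and held 27754 AGO2 reads, an occupancy of 4849. Counting error of the reads alone puts that between 4792 and 4906, and the 4 mRNA libraries taken singly put it between 3495 and 8933. The spread of its AGO2 reads between libraries is unknown. Its strongest group, the miR-27 window printed above, held 25070 of the reads, and the same group holds a miR-23 match. Spred1 stood at 14.1, 11.9, 20.7 and 18.1 RPKM with 39907 reads, 99.1% of them in 1 group of 38 bases, and its occupancy was 2463 (1925 to 3349 over the libraries). RPKM is divided by gene-model length, which was 28.2 kb for Tnpo1, 18.4 for Rbm47, 6.58 for Spred1, 6.29 for Cdkn1b and 2.42 for Fos. A longer model lowers RPKM and raises occupancy, and the part of length in the order of these 5 genes was not tested.

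Rbm47, at 6.00, 6.39, 6.48 and 7.44 RPKM, had the steadiest mRNA level of the 5, and its occupancy of 1997 ranged from 1766 to 2188. Cdkn1b held 10569 reads at 6.38 ± 1.63 RPKM (SD, n = 4), an occupancy of 1656, and 75.2% of the reads were in the group with the miR-221 match. Cdkn1b is a long-known target of miR-221 and miR-222. Fos stood at 8.06 and 12.3 RPKM in WT 1 and WT 2 and at 28.9 and 30.5 in WT 3 and WT 4. Numbers 1 and 2 lay below numbers 3 and 4 for this gene with no overlap, and its occupancy of 1591 ranged from 1040 to 3932 for that reason. By the mean of WT 3 and WT 4 alone Fos would belong to the next RPKM range. For scale, 90% of the genes with a group in this range had an occupancy under 62.4.

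From 20 to under 100 RPKM the gene of highest value was Vmp1, at 195964 reads and 42.5 ± 9.09 RPKM (SD, n = 4), but these reads are almost all a miRNA. The 3′ end of Vmp1, which encodes a membrane protein of autophagy, overlaps the miR-21 hairpin. Its group at chr11:86397618-86397644 on the minus strand shares a run of at least 18 bases with mature miR-21a-5p and held 193858 reads. Conversion events came to 4.99 per 100 reads there, against 91.2 over the other converted 3′ UTR groups. Without that group and one holding miR-21a-3p, Vmp1 had 31 reads and an occupancy of 0.730, at percentile 16.2 of all genes with a group in place of 99.97. The same holds for Dvl2, a WNT pathway scaffold gene, whose occupancy fell from 769 to 8.93 when a group of 4684 reads holding miR-324-5p was left out. In all 4 converted 3′ UTR groups held a mature miRNA, with 200633 of 1719975 reads.

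The other genes of highest occupancy in this range included Ell2, Kif5b and Scd2. Ell2, a transcription elongation factor gene, stood at 40.1, 15.9, 37.5 and 36.6 RPKM in WT 1 to WT 4, with WT 2 apart from the others. It held 35304 reads, 98.2% of them in the miR-27 group, and its occupancy was 1085 (881 to 2217, the highest by WT 2). Kif5b, the heavy chain of a kinesin motor, had an occupancy of 402 (312 to 669). Scd2, a fatty acid desaturase gene, had 201 (131 to 282), with 89.7 RPKM in WT 1 against 41.6 to 55.0 in the other libraries. Of the 1157 genes with a group in this range, 5% exceeded 33.7.

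At 100 RPKM or more, occupancy peaked far lower. Ctnnb1, which encodes β-catenin, stood at 79.4, 73.9, 149 and 120 RPKM and held 4040 reads in 8 groups, an occupancy of 38.3 (27 to 54.7). WT 1 and WT 2 lay below WT 3 and WT 4 and under the range's lower limit. Tmbim6, a membrane protein gene of the endoplasmic reticulum, had 22.1 (18.3 to 29.1). Lpl, the lipoprotein lipase of macrophages, had 10632 reads in 25 groups and stood at 291, 290, 737 and 647 RPKM, again with WT 1 and WT 2 below WT 3 and WT 4, and its occupancy was 21.6 (14.4 to 36.6). Vat1, at 248 ± 47.0 RPKM, had 20.3 (17.2 to 27.3). The ranges of Tmbim6, Lpl and Vat1 overlap, so their order does not exceed the spread of the mRNA libraries.

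The differences between mRNA libraries bound how finely genes can be ordered. Over the genes with a group the highest of the 4 RPKM values was a median of 1.64 times the lowest, and it was over 2 times the lowest in 956 genes (27.6%). Occupancies computed with a single library correlated at a Spearman value of 0.979 between WT 1 and WT 2 and 0.995 between WT 3 and WT 4, and at 0.954 to 0.968 between the 2 sets. What the sets are is not given in the labels. Set against the 85.4-fold range between genes, these are small differences, but they exceed the gaps between neighbours in the order.

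Among genes with a converted group at 100 RPKM or more, the lowest occupancies belonged to both ferritin genes and to pyruvate kinase. Fth1, the ferritin heavy chain, stood at 13155, 23842, 18948 and 20027 RPKM and held 58 converted 3′ UTR reads, an occupancy of 0.00305 with a counting interval of 0.00232 to 0.00395. Coding reads of named genes, here and below, count groups with or without conversion. Coding groups of Fth1 held 5424 such reads, against 58 in 3′ UTR groups counted the same way. Reads on this mRNA were thus mostly outside the 3′ UTR annotation, and the converted part of the coding reads was not counted. Ftl1, the light chain, held 16 reads at 4691 ± 2046 RPKM (SD, n = 4), and Pkm, pyruvate kinase, held 8 at 1075 ± 121, an occupancy of 0.00744. Both ferritin genes have many processed copies in the genome, and how reads that map more than once were treated is not given in the sources used here, so these 2 values are uncertain. From 20 to under 100 RPKM the lowest were Oas3, an interferon-induced synthetase gene (5 reads, 0.0604), and Tln1, talin (8 reads, 0.0845). Oas3 stood at 134 and 93.8 RPKM in WT 1 and WT 2 and at 50.5 and 52.7 in WT 3 and WT 4. Tln1 held 1076 coding reads and 30 reads in 3′ UTR groups, with or without conversion in both. From 5 to under 20 RPKM they were Nmd3, an export adaptor of the large ribosomal subunit (5 reads), Zfp511 (6 reads) and Prpf8, a core spliceosome protein (6 reads and 292 coding reads), at 0.258, 0.333 and 0.334. With so few reads the exact counting interval is wide, from 0.0838 to 0.602 for Nmd3, and the 3 genes cannot be ordered. That interval also leaves out that no listed group holds under 5 reads. With this floor, the lowest occupancy a range allows lies at its upper RPKM limit. The genes named from 5 to under 20 and from 20 to under 100 RPKM held 5 to 8 reads. By mean RPKM they lay in the upper part of their range. Their place as lowest is thus partly built in, and how far was not tested.

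**Figure D3:**
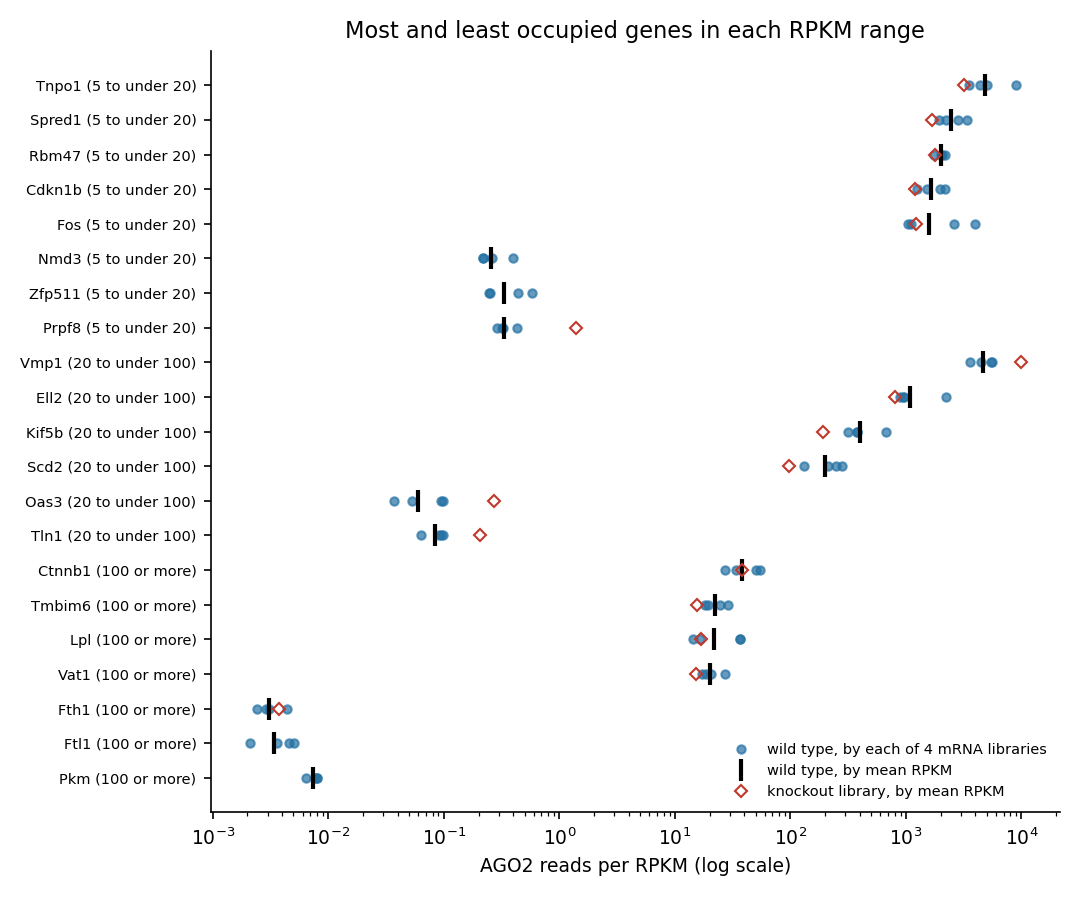
AGO2 reads per RPKM on a log axis for the highest and lowest genes named in each RPKM range: blue points use each of the 4 wild type mRNA libraries, the black bar the mean RPKM, and the open diamond the library labelled knockout with its own mean RPKM (absent where it lists no group). The genes were picked as the highest and lowest, so their separation is given by the choice, the spread of the blue points shows how far the mRNA libraries differ, and Vmp1 includes miR-21. Values are not scaled to the depth of the PAR-CLIP libraries, and the library labelled knockout is the shallower.

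Of the 3364 expressed genes without a converted 3′ UTR group, 2533 were protein coding. In these, 1224 had no group anywhere, 863 had a coding group but no 3′ UTR group of any kind, and 182 had a 3′ UTR group without conversion. Their median level was 14.3 RPKM and that of protein coding genes with a group 16.0, while their median gene-model length was 2.40 against 4.18 kb. The protein coding genes of highest level with no 3′ UTR group were Apoe, which encodes a lipid carrier of macrophages (10406, 15641, 8070 and 9829 RPKM), and the translation elongation factor genes Eef2 (1152 ± 290 RPKM) and Eef1a1 (1020 ± 159 RPKM, SD, n = 4). Apoe held 51 coding reads and Eef2 211, with or without conversion. Eef1a1 has many processed copies and its absence is uncertain for that reason.

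From 20 to under 100 RPKM the genes of highest level without a group were Zfp36l2 (99.8 ± 30.6 RPKM), Atp5o (99.3 ± 17.3) and Coa5 (99.0 ± 33.7). Zfp36l2 encodes a protein of AU-rich element binding and mRNA decay, and the other 2 encode mitochondrial proteins. Zfp36l2 held 368 coding reads, and the other 2 had no group anywhere. From 5 to under 20 RPKM they were Mrpl30, a mitochondrial ribosomal protein gene (20.0 ± 2.17), Cul1, a ubiquitin ligase scaffold (20.0 ± 7.29), and Prdx3, a mitochondrial peroxidase (19.9 ± 4.64). These 3 lie at the upper limit of their range because the rule takes the highest level. The choice to name protein coding genes alone was made after values were seen.

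The reads of genes just under and just over the 5 RPKM limit overlapped. Rad17 (4.997 ± 1.61 RPKM, just under it) had 37 reads and Dstyk (4.997 ± 0.531) had 247, and just over it Pomk (5.01 ± 0.940) had 29 and Acer3 (5.01 ± 2.84) had 165. Among protein coding genes of 4 to 5 RPKM 46.9% (interval 42.9 to 51.1%) held a group, of 5 to 6 RPKM 56.2% (51.8 to 60.5%), and of 6 to 7 RPKM 50.2%. Below the limit 2086 genes held 347062 converted 3′ UTR reads. The largest sums there were those of Ids, a lysosomal sulfatase gene (11185 reads at 3.89 ± 0.98 RPKM), Nav2 (10356 at 1.35 ± 0.78) and Adora2b, an adenosine receptor (9433 reads in 1 group at 1.56 ± 0.44). Only Ids exceeds the lowest of the 12 genes of most reads above the limit, Cdkn1b with 10569.

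The PAR-CLIP library labelled knockout (ELAVL1f/f with LysM-Cre) gave a second reading of the same genes with its own 4 mRNA libraries. Elavl1 itself stood at 12, 10.9, 11.5 and 11.9 RPKM in the wild type libraries and at 13.6, 11.5, 11.9 and 13.5 in those labelled knockout, so its mRNA was not lower there, and counts over a whole gene do not show whether the floxed part was lost. A converted 3′ UTR group was also listed in that library for 2708 of the 3458 genes (78.3%). Over those, occupancies in the 2 libraries had a Spearman correlation of 0.896 (0.855, 0.871 and 0.892 within the 3 RPKM ranges). Recurrence went with depth: it was 42.6% for the 674 genes with under 20 wild type reads, 74.1% for 20 to under 100, 98.8% for 100 to under 1000, and 100% for the 210 genes with 1000 or more. Of the 2533 protein coding genes with no wild type group, 374 (14.8%) had one in the other library, with a median of 19 reads.

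The genes of highest occupancy were high in that library too. Tnpo1 had 17376 reads and an occupancy of 3170 there, Spred1 1668, Rbm47 1793, Cdkn1b 1195, Fos 1219 and Ell2 805. Ctnnb1 was at 38.2 in the library labelled knockout and 38.3 in wild type. Of the lowest genes named above, Fth1 (0.00372), Oas3 (0.273), Tln1 (0.208) and Prpf8 (1.39) had a group there, and Nmd3, Zfp511, Ftl1 and Pkm had none. Occupancies are not scaled to PAR-CLIP depth. Without groups that are miRNAs, converted 3′ UTR reads numbered 1075484 in the library labelled knockout and 1519342 in wild type. An equal or lower occupancy in the shallower library thus does not show equal or lower binding. With 1 library per genotype the occupancies carry no test, and a difference between them in either direction cannot be assigned to the genotype.

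Lists of genes by function were read against the 50.7% of all genes with a group and the median of 3.97 reads per RPKM. The share among protein coding genes, 57.5%, is the closer background for these lists. The median of 3.97 spans all RPKM ranges, and occupancy falls with RPKM, so lists of low mRNA level stand higher against it. Subunits of large housekeeping complexes mostly had no group. Of 35 expressed cytosolic ribosomal protein genes 3 had one (8.57%, interval 1.8 to 23.1%): Rpl5, Rpl22 and Rps20, with 6, 22 and 8 reads, while Rplp1, the most abundant without a group, stood at 946 ± 538 RPKM. Ribosomal protein genes have many pseudogene copies, so these counts are uncertain. In the respiratory chain and ATP synthase list 5 of 39 had a group (12.8%, interval 4.30 to 27.4%), and the highest was Ndufv1 with 14 reads at 33.0 RPKM, whereas Atp5b at 303 ± 31.5 RPKM had none. Of 28 proteasome genes 3 had a group (10.7%), and Psma3 stood alone with 246 reads at 19.8 ± 8.79 RPKM, an occupancy of 12.4. The median of the 3 was 0.614, and with 20 or more reads required only Psma3 and Psmd14 were left, whose midpoint exceeded the median of all genes. Median gene-model lengths of these lists were 1.26, 0.716 and 1.36 kb, all within the shortest quintile, and the part of length in their shares was not tested. All other lists had shares of 56.3% or more. Those of glycolysis (56.3%) and of cytokines and chemokines (57.1%) were under the 57.5% of protein coding genes.

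Several lists of regulatory genes had larger shares. Median gene-model lengths of the lists of signalling brakes and of transcription factors lay in the second longest quintile (4.12 to 6.88 kb). In that quintile 69.9% of protein coding genes held a group. The interval for the brakes, 78.2 to 100%, lay above this share. That for the transcription factors, 65.3 to 94.4%, included it. The part of length in the shares of these lists was not tested. All 15 expressed genes of the list of brakes on MAPK and receptor kinase signalling had a group. Their median occupancy was 9.43 and their median percentile within the RPKM ranges 64.7. Beside Spred1 they included Rasa1, a Ras GTPase-activating protein gene (2873 reads at 5.60 ± 2.40 RPKM, 513), and Socs5, a suppressor of cytokine signalling (201), while Ptpn6, a phosphatase abundant in blood cells, had 16 reads at 178 ± 45.0 RPKM (0.0900). Of 30 transcription factor and chromatin genes 25 had a group, with a median of 16.9 and a median percentile of 81.7. Tet3, a DNA demethylase gene, led with 8036 reads in 36 groups at 11.6 ± 0.88 RPKM (693), and Cebpb, a myeloid transcription factor gene, was lowest with 17 reads at 213 ± 129 RPKM. Its relative Cebpd had no group at 140 ± 107 RPKM, with 208 and 253 RPKM in WT 1 and WT 2 and 48.7 and 48.1 in WT 3 and WT 4.

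In the list of TGF-β, BMP and WNT signalling 9 of 11 genes had a group. The interval of that share, 48.2 to 97.7%, includes the 57.5% of protein coding genes. It also includes the 69.9% of the second longest length quintile, in which the median gene-model length of this list lay. All 9 exceeded the median of all genes. Within the RPKM ranges their median percentile was 85.4, and Smad2, at 48.1, lay below the middle of its range. Tgfbr1, a type I TGF-β receptor, had 4356 reads in 33 groups at 3.02, 2.90, 11.7 and 8.16 RPKM, an occupancy of 677 (374 to 1501), and its mRNA was below the 5 RPKM limit in WT 1 and WT 2. The ligand gene Tgfb1 had no 3′ UTR group at 213 ± 38.5 RPKM. Of 18 immediate early genes 16 had a group, with a median of 10.5 and a median percentile of 76.9. Values ran from 1591 in Fos to 0.518 in Junb, and Jund had none at 156 ± 69.3 RPKM. The median gene-model length of the immediate early list, 2.32 kb, lay in the second shortest quintile. In that quintile 49.3% of protein coding genes held a group. Members of the AP-1 family differed: Jun had 103 reads at 42.3 RPKM (2.43), at percentile 53.9 of the genes with a group in its RPKM range, Fosl2 was at 77.8 and Junb at 20.1. With groups of 2 or more conversion locations alone, the median of the immediate early list fell below that of all genes.

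Of 8 expressed genes of the argonaute, TNRC6 and miRNA maturation list 5 had a group, a share of 62.5% (interval 24.5 to 91.5%) that includes the share of all genes in its interval, with a median occupancy of 32.5: Tnrc6a (129), Dicer1 (62.2), Ago2 (32.5, 481 reads at 14.8 ± 3.87 RPKM), Ago1 (12.4) and Prkra (1.59). Tut7, Tarbp2 and Xpo5 had none. In the list of deadenylation and decapping 14 of 21 had one, led by Dcp1a (99.4) and Btg2 (96.8), with a median of 11.5, whereas Pabpc1, the poly(A)-binding protein, had none at 376 ± 52.1 RPKM. Among AU-rich element binding proteins 11 of 16 had one, with a median percentile of 55.5 within the RPKM ranges. Zfp36, which encodes tristetraprolin, had 2561 reads at 74.8 ± 15.1 RPKM (34.2), its relatives Zfp36l1 376 reads (9.24) and Zfp36l2 none, and Elavl1 75 reads (6.48). By number of groups in place of reads the median of this list fell below that of all genes.

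Cell cycle genes with a group numbered 22 of 32, with a median of 10.4 and a median percentile of 62.7 within the RPKM ranges. After Cdkn1b came the phosphatase gene Cdc25b (1855 reads, 244), and Ccnd1, cyclin D1, had 1285 reads at 56.6 ± 16.6 RPKM (22.7). Replication genes lay apart from each other: Mcm4 had 1083 reads (71.8), Mcm5 had 16 (0.500), and Mcm2, Mcm3, Mcm6 and Mcm7 had no group. Of 22 genes of cholesterol and lipid handling 14 had a group, with a median of 5.78, among them Scd2 (201) and Abca1, the cholesterol exporter (1798 reads, 49.2). That list's median fell below the median of all genes when CPM replaced RPKM or when the strongest group alone was used.

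Genes of the macrophage's own functions often had a group, and their low occupancies went with high mRNA levels. In the lysosome list 28 of 36 had a group (77.8%, interval 60.8 to 89.9%), with a median occupancy of 0.837 at a median of 95.02 RPKM. Tpp1, a lysosomal peptidase gene, led with 5045 reads (51.6), and Ctsd and Ctsb, the cathepsins D and B, had 1688 and 2113 reads but 0.651 and 0.468 reads per RPKM. Hexa had 10 reads at 490 ± 201 RPKM. In the macrophage identity list 24 of 32 had a group, with a median of 0.940 at 199 RPKM. Runx1, a transcription factor of blood development, was highest (590 reads at 7.54 ± 0.90 RPKM, 78.2), Csf1r, the CSF1 receptor, had 813 reads at 181 ± 52.4 RPKM (4.48), C1qb and C1qc of complement C1q had 0.0446 and 0.0431, and C1qa had none at 676 ± 151 RPKM. Within its own RPKM range the median percentile of the macrophage list was 52.4 and that of the lysosome list 44.2, close to the middle. In the actin list 25 of 36 had a group, with a median of 0.336, from 13.6 in Actr2 to 0.0193 in Pfn1.

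Innate immune genes spread widely. Of 24 genes of Toll-like receptor and NF-κB signalling 15 had a group, with a median of 1.13. Tlr4, the lipopolysaccharide receptor, had 400 reads and an occupancy of 36.9 (19.5 to 80, at 5.0 and 5.28 RPKM in WT 1 and WT 2 and 20.5 and 12.5 in WT 3 and WT 4), and Tnfaip3, the NF-κB inhibitor A20, had 32.6. The adaptor Myd88, the kinase Irak3 and the inhibitor Nfkbia had none. Of 21 cytokine and chemokine genes 12 had a group: Igf1 (95.8) and Vegfa (82.3) led, Tnf had 150 reads at 38.0 ± 9.90 RPKM (3.94), and Ccl2 and Ccl5 had none. Of 29 interferon response genes 19 had one, from 183 in Trim25 and 129 in Oas2 to 0.0465 in Ifitm3, and Isg15 had none. Oas2 and Oas3, neighbours in function, thus had 1580 and 5 reads. The medians of the cytokine list (2.56) and the interferon list (3.94) changed sides of the overall median with the processing.

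Glycolysis genes had a group in 9 of 16, with a median of 1.84 that exceeded the overall one among groups of 2 or more conversion locations. Its log2 ratio to the overall median was -1.11, and -1.95 without WT 2. Aldoa, aldolase A, stood out with 3139 reads at 270 ± 44.3 RPKM (11.6) against 8 in Pkm. Phosphoinositide and mTOR genes had one in 12 of 13, led by Insr, the insulin receptor (55.8), and their median of 4.19 changed sides of the overall median with the processing. Reported target lists, which were drawn from knowledge of these miRNAs and do not stand apart from earlier results of these data, had groups in 9 of 10 miR-21 targets (median 24.9), 17 of 17 miR-155 targets (5.27, but under the overall median with the strongest group alone) and 13 of 14 let-7 targets (22.7). Map2k3, a kinase gene on the miR-21 list, had 603 (24.9). These occupancies sum all converted 3′ UTR reads of a gene and not those at a site of the named miRNA. In Fos, the highest of the miR-155 list, 30011 of 31686 reads were in the group with the miR-29 match.

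**Figure D4:**
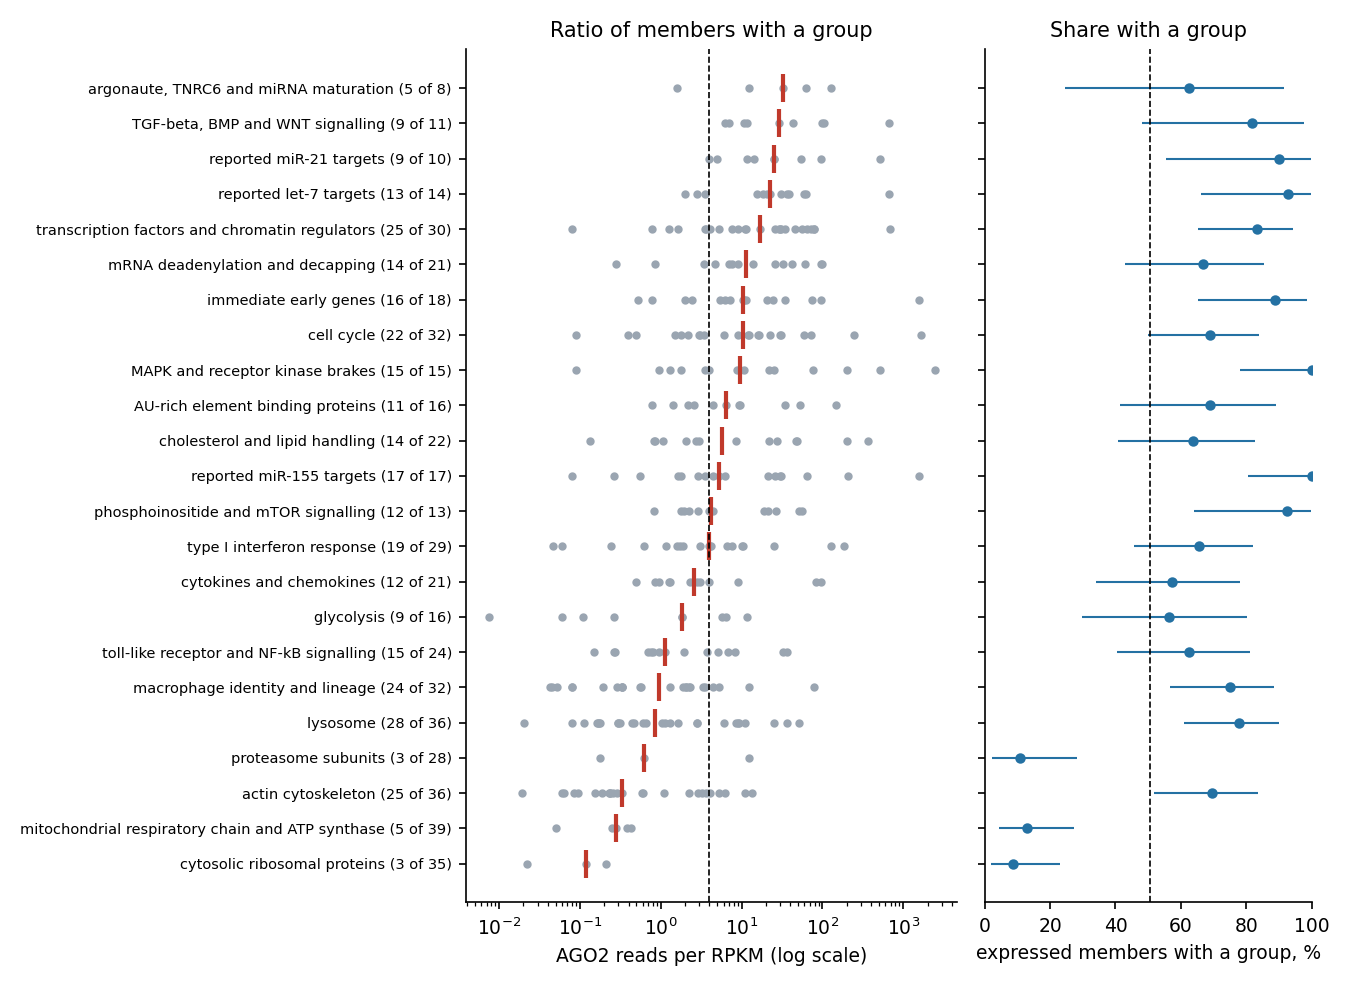
For 23 gene lists, with the number of expressed members that hold a group in brackets: left, AGO2 reads per RPKM of each member with a group (grey points) and the list median (red bar) on a log axis, with the median of all genes, 3.97, dashed; right, percent of expressed members with a group and its 95% exact interval, with 50.7% for all genes dashed. Ribosomal, respiratory chain and proteasome genes have shares of 8.57%, 12.8% and 10.7%, and all other lists 56.3% or more. The share of protein coding genes, 57.5%, is not drawn.

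Seed matches went with occupancy. The 15 seed families of most reads in the 2 wild type small RNA libraries (6886110 and 7869443 reads) were searched in each converted 3′ UTR group that is no miRNA itself, as the 7-base complement of bases 2 to 8 or of bases 2 to 7 followed by an A. The search ran on the given strand, and overlapping matches of the 2 kinds at 1 site counted once. For example, the miR-27 matches are ACTGTGA and CTGTGAA. A match to any of the 15 families was present in 17.5% of the 19198 groups, and these groups held 45.1% of the reads. Of groups with 5 to under 10 reads 10.4% had one, rising to 20.5% for 20 to under 100, 36.9% for 100 to under 1000 and 53.8% (100 of 186) for 1000 or more. Median group length also rose, from 21 to 37 bases, so the density is the better measure: it went from 0.32 to 0.92 matches per 1000 bases and family. Matches to 4 miRNAs that these cells hardly or do not express (miR-208a-3p, miR-216a-5p, miR-217-5p and miR-184-3p) were at 0.05, 0.04, 0.03, 0.06 and 0.03. These densities are for groups of 5 to under 10, 10 to under 20, 20 to under 100, 100 to under 1000 and 1000 reads or more. They had no steady direction, and the last rests on 1 group.

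Taking the strongest group of each gene, 40.7% (281 of 691, interval 37.0 to 44.4%) held such a match in the top quintile of genes by occupancy within their RPKM range. The 3 middle quintiles had 22.7% (471 of 2074) and the bottom quintile 11.7% (81 of 691, interval 9.42 to 14.4%). In the 3 RPKM ranges the top quintiles stood at 40.2%, 40.3% and 46.2% and the bottom quintiles at 13.2%, 8.66% and 13.5%. The reads chose these quintiles, so the shares carry no test, and the groups of the top quintile were longer, at a median of 32 against 24 bases. Among groups of 30 bases or fewer the shares were 35.9% (104 of 290) and 10.5% (68 of 649). Without the miR-27 family they were 29.8% and 10.1%. The strongest groups of the top quintile also held the motif ATTTA, the core of AU-rich elements, searched on the given strand, more often than those of the bottom quintile (10.9% against 5.50%), at an A and T content of 63.5% against 58.5%.

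The families differed widely in how their share of AGO2 reads compared with their abundance. The miR-27 family made up 1.77% of small RNA reads, yet groups with its match were 3.27% of groups and held 19.8% of AGO2 reads, with a median of 48 reads against 19 for all groups. Of the 186 groups with 1000 reads or more 48 (25.8%) held it. A miR-27 match lay in the strongest group of 170 expressed genes, which stood at a median percentile of 79.7 within their RPKM range. Beside the genes printed above, Itsn2, an endocytosis scaffold gene, had 17392 reads at 11.6 ± 2.54 RPKM and an occupancy of 1499, chosen here after values were seen, as are the other genes of this paragraph and the next.

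The families of miR-29 (0.633% of small RNA reads), miR-23 (0.631% for miR-23a alone, with miR-23b, which shares its seed, at a further 0.198% without a RefSeq entry) and miR-142-3p (0.807%) had matches in groups with 6.05%, 5.59% and 4.21% of AGO2 reads. A group that matches several families counts for each, and single groups weigh much. The strongest group of Fos held 30011 of the 91974 miR-29 reads. Those of Tnpo1 and Rbm47 held 25070 and 12901 of the 84923 miR-23 reads. For miR-29 the leading genes after Fos were Tet3 and Cflar, an inhibitor of caspase 8 (376). For miR-142-3p they were Rbm47, Kif5b and Coro2a (608). For miR-23, after Tnpo1 and Rbm47, whose groups hold matches to other families too, the next was Nfe2l2, the transcription factor NRF2, with 9941 reads at 90.4 ± 32.8 RPKM (110). miR-221, the 16th family and added for Cdkn1b after values were seen, made up 0.550% of small RNA reads and matched groups with 3.45% of AGO2 reads.

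The most abundant miRNAs lay at the other side. miR-21a-5p made up 46.7% and 45.6% of small RNA reads in WT 1 and WT 2, and its matches were in 108 groups with 0.401% of AGO2 reads. The genes of highest percentile with a miR-21 match in the strongest group were Map2k3, Lats1, a Hippo pathway kinase gene (74.3), and Fgd4 (64.9). No miR-21 match lay in a group of 1000 reads or more. miR-146a, at 5.05% of small RNA reads, matched groups with 0.379% of AGO2 reads. The let-7 family, at 22.2%, matched groups with 2.43%, led by Tgfbr1, Crk, a signalling adaptor (4335 reads at 7.28 ± 0.66 RPKM, 595), and Strn (311). miR-24, at 4.30%, matched groups with 3.796%, nearly its share of small RNA reads, led by Lpl and by Ptafr, the receptor of platelet-activating factor (92.4). The 4 control miRNAs matched groups with 0.0382 to 0.364% of AGO2 reads each, in 9 to 38 groups against 108 for miR-21a and 109 for miR-146. By reads these 2 families were thus close to the highest control, and by number of groups above all 4. The highest control by reads, miR-216a-5p, had 1 of its 21 groups at 1000 reads or more. The base content of the control matches was not compared with that of these families. Small RNA reads were counted by the authors, and of 485 listed miRNAs 371 had a RefSeq sequence, with 94.0% of reads. miR-378a-3p (2.85%) had none and was not searched. miR-30d-5p (2.39%) had none either, and its reads are missing from the abundance of the miR-30 family (0.930%), whose seed it shares and whose matches were searched.

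**Figure D5:**
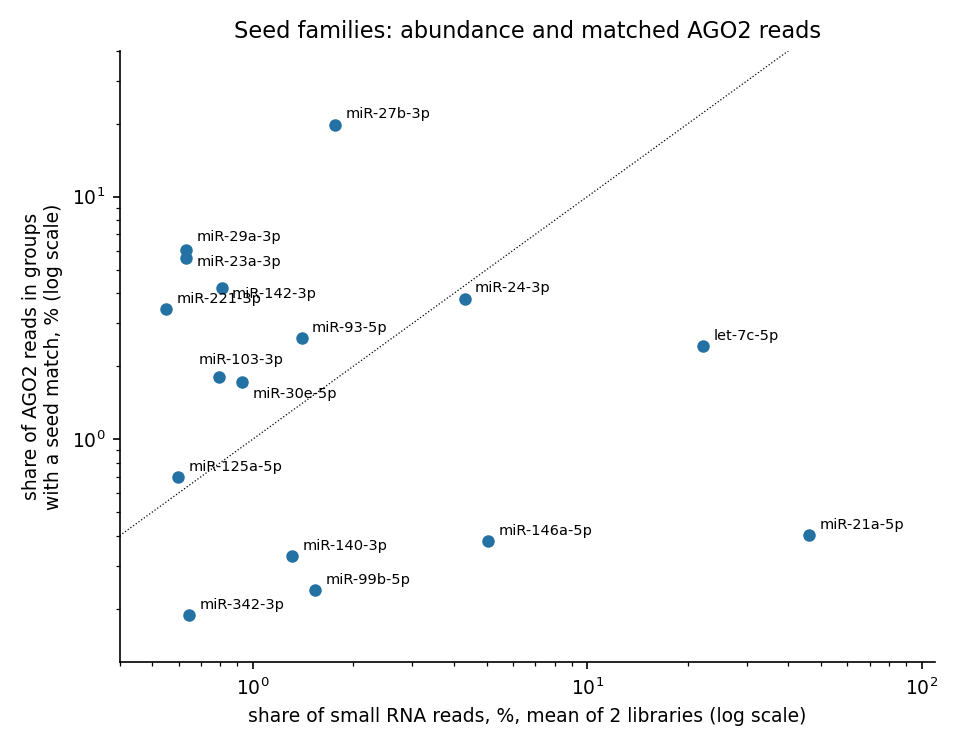
Each point is 1 of 16 seed families, named by its most abundant member with a RefSeq sequence (miR-30d and miR-23b are not counted), with its share of small RNA reads (mean of WT 1 and WT 2) on the horizontal log axis and the share of AGO2 reads in converted 3′ UTR groups that hold its 7-base match on the vertical log axis; the dotted line marks equal shares. miR-27b-3p lies far above the line at 1.77% and 19.8%, and miR-21a-5p far below it at 46.2% and 0.401%. A group that matches several families counts for each.

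The labelled cell type was checked on its markers in the 4 mRNA libraries. All 13 macrophage markers exceeded 5 RPKM, and their sum ran from 12863 to 16746 RPKM. Summed markers of neutrophils ran from 6.94 to 25.5 RPKM, of T and B lymphocytes from 33.8 to 42.1, of erythroid cells and megakaryocytes from 2.98 to 6.63, of mast cells and basophils from 0.199 to 2.36, of endothelium from 2.28 to 5.49 and of dendritic cells from 1.02 to 32.1. Ly6g, Cd3e, Cd8a, Pax5, Ms4a2, Lum, Tek and Flt3, defining genes of those lists, were under 0.05 RPKM. At 5 RPKM or more were 1 of 10 neutrophil markers (S100a8 at 8.82), 2 of 9 lymphocyte markers (Cd79b the higher at 24.8) and 1 of 7 dendritic cell markers (Itgax at 10.1). The dendritic sum was 32.1 in WT 4 and 1.02 to 9.30 in the other libraries, and the part of such cells in the results was not tested. The fibroblast list summed to 97.9 to 175 RPKM, of which Lox held 128 on average, with 1 of 12 genes at 5 RPKM or more.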

How the data were processed

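For mRNA the files hold, per their headers, raw counts and RPKM values that the authors computed per Ensembl gene; for small RNA, counts the authors made per miRNA; and for PAR-CLIP, a deposited list of groups with read counts, conversion events and annotation. The submitters' processing notes name CASAVA 1.8.2, Bowtie 0.12.7 and mm9. Which program counted genes or called groups, and whether positions start at 0 or 1, is not given in the sources used here. Converted 3′ UTR reads were summed per gene name and joined to symbols: of 5657 names, 5185 were symbols, 5615 matched with synonyms and 42 did not (13 look like dates). All counts leave out genes without a symbol or with a symbol that several identifiers share (6822 of 7307 at 5 RPKM or more were used). The groups held 6287870 reads in all, 22109 of 66451 groups were 3′ UTR and 19202 of them converted. Ratios used the deposited RPKM without a pseudocount, and alternatives used 1, no filter, or TMM-scaled CPM (edgeR 4.0.16, R 4.3.3). Tables were joined in Python 3.11.15, pandas 2.3.3 and scipy 1.17.1, and the joining was tested on simulated data. Intervals are 95% exact Poisson for reads and Clopper-Pearson for shares and cover counting error only, since reads carry no molecular identifiers. Nothing was tested, as there is 1 PAR-CLIP library per genotype. The named genes are the 5 of highest and 3 of lowest ratio and the 3 most abundant without a 3′ UTR group in each RPKM range, and up to 3 per list: highest, lowest, and most abundant without a group. Other genes of the 23 lists were added after their values were seen. Members and lists were chosen with earlier results of these data known. Some genes that these rules choose are not reported here.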

Additional observations from a re-analysis of the deposited data

Results flagged for a closer look

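In 5 of 91 named genes 1 of the 4 wild type mRNA libraries stood apart from the others by Dixon's criterion. It takes the gap to the nearest value over the whole range. The genes share the same 4 libraries, so this count cannot be set against a chance rate. Ell2 stood at 15.9 RPKM in WT 2 against 36.6 to 40.1 in the others, Tln1 at 125 in WT 1 against 81.1 to 88.4, Zfp36l2 at 146 in WT 2 against 83.5 to 86.0, Hexa at 789 in WT 2 against 367 to 434, and Cd63, a lysosomal membrane protein gene without a group, at 124 in WT 1 against 184 to 196. All 5 values fell on WT 1 or WT 2.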

How the results depend on the processing

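The share of genes with a group was 50.7%, median occupancy 3.97 and the Spearman correlation of reads with RPKM 0.05. Leaving out each mRNA library gave 50.2 to 50.8%, 3.88 to 4.07 and 0.04 to 0.07. With an RPKM minimum of 1 the values were 46.1%, 7.23 and 0.11, at 10 they were 51.6% and 2.56, and with no minimum 30.1%, 8.87 and 0.18. CPM values gave a median of 1.36 and a correlation of 0.23, a pseudocount of 1 a median of 3.68, and the number of groups a median of 0.142. The strongest group alone gave 2.37. Groups converted or not gave 53.4%, groups with 2 or more conversion locations 23.6% and 6.11, coding groups added 63.0% and 0.082, genes with 20 or more reads 40.8% and 6.16, symbols without synonyms 47.2%, and WT 1 and WT 2 alone 49.8%. Chosen after seeing the data, protein coding genes alone gave 57.5%, strongest groups of 30 bases or fewer 35.9%, leaving out miR-27 29.8%, and 20 or more reads in both PAR-CLIP libraries a correlation with the knockout ratio of 0.918. The causes were not tested beyond the changed selection of genes or groups.

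The log2 ratio of a list's median to that of all genes changed sign in 22 of 503 values, in 9 of 23 lists. For interferon genes it was 0.051 with the pseudocount, 0.18 for the strongest group, 0.00302 with symbols only, -0.26 to 0.10 leaving out each library (0.05 without WT 3 and 0.10 without WT 4), 0.43 in WT 1 and WT 2 and 0.00209 with conversion events in 20% of reads or more. For phosphoinositide genes it was -0.13 for the strongest group, -0.56 with 20 or more reads, -0.00536 without WT 2, -0.00287 in WT 3 and WT 4 and -0.10 with the conversion limit. With CPM it was 0.41 for cytokines and -0.67 for cholesterol genes, and -0.47 for the latter with the strongest group. With 2 or more conversion locations it was 0.92 for glycolysis, -0.080 for immediate early genes and -0.35 for miR-155 targets, which had -0.43 with the strongest group. With the number of groups it was -0.53 for AU-rich element binding proteins and -0.029 for immediate early genes, and with 20 or more reads it was 0.080 for proteasome genes. No paired analysis was possible because the result comes from no test.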
